A study of Mus musculus with 102 samples.

Results

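The oxidative phosphorylation subunits of spinal microglia, from complexes I to V with cytochrome c, were followed across 6 groups of mice. Members were picked by gene symbol alone (Ndufa, b, c, s and v with a number, Sdha to Sdhd, Uqcr, Cox4 to Cox8, Atp5, mt-Nd, mt-Co, mt-Cytb, mt-Atp, Cyc1 and Cycs, with 7 symbols ending in -ps left out). They made up 97 of the 18856 genes in the normalized table that the authors deposited, and all 97 passed the filter on low counts. Of these, 82 are subunit genes of the nucleus (35 of complex I, 4 of complex II, 9 of complex III, 16 of complex IV, 17 of complex V and cytochrome c), 11 lie on the mitochondrial genome (mt- genes; 6 of complex I, 1 of complex III, 3 of complex IV and 1 of complex V) and 4 are processed pseudogenes whose symbols match. Ndufa4, first described in complex I, was placed in complex IV, where it resides.

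Microglia were sorted from the lumbar spinal cord of mice labelled ABC-imKO (KO in what follows), which carry Cx3cr1-CreERT2 and the floxed alleles Abca1fl/fl and Abcg1fl/fl, and of wild type mice (WT). In the KO line Cx3cr1 regulatory sequence drives an inducible Cre in microglia and in other Cx3cr1-expressing cells, and how the Cre was induced is not given in the sources used here. Mice received intraperitoneal cisplatin on days 1 and 3 and an intrathecal injection on day 7 of AIBP (apolipoprotein A-I binding protein) or of saline, or were left naive. The groups were KO cisplatin AIBP (samples 7, 8 and 9), KO cisplatin saline (4, 5 and 6), KO naive (1, 2 and 3), WT cisplatin AIBP (7 and 9), WT cisplatin saline (4, 5 and 6) and WT naive (1, 2 and 3), 17 numbered samples in all. Whether each numbered sample came from a single mouse or from pooled mice is not stated in the labels, so a p-value here measures the spread between the samples. Naive mice had no intrathecal injection, so that cisplatin and the injection cannot be told apart in any comparison with naive mice. Cisplatin is a platinum chemotherapy drug that causes painful peripheral neuropathy, and the study asked how cholesterol handling in spinal microglia bears on that pain.

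In the inner mitochondrial membrane, complexes I and II pass electrons from NADH and succinate to ubiquinone, complex III passes them on to cytochrome c, and complex IV hands them to oxygen. Protons pumped on the way drive complex V, the ATP synthase. The mitochondrial genome encodes core subunits of complexes I, III, IV and V, whereas all of complex II and most other subunits are encoded in the nucleus, translated in the cytosol and imported. Microglia are the resident macrophages of the spinal cord, and activated macrophages are known to shift between respiration and glycolysis.

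Total counts per sample lay between 45.1 and 76.6 M (M stands for mega) with a median of 63.1 M, of which nuclear members took 0.652 to 1.57% and mt- members 1.12 to 2.22%. Levels are CPM, counts scaled to a fixed library size, with TMM-adjusted totals. The floxed genes did not pass the test between KO and WT under any treatment. Abca1 ranged from 66.1 to 105 CPM in KO naive and from 87.3 to 114 CPM in WT naive (log2 fold change -0.30 ± 0.28, adjusted p = 0.947), and Abcg1 from 41.6 to 66.4 CPM in KO naive and from 91.7 to 160 CPM in WT naive (-1.13 ± 0.32, adjusted p = 0.789). The log2 fold changes of KO over WT were 0.11 ± 0.28 for Abca1 and 0.07 ± 0.32 for Abcg1 after cisplatin saline (adjusted p = 0.971 and 0.992), and 0.28 ± 0.31 and -0.21 ± 0.36 after cisplatin AIBP (adjusted p = 0.9 and 0.954). The counts thus did not show a loss of either transcript past the test, although Abcg1 did not overlap between KO naive and WT naive. They are counts of whole genes, and exons were not counted separately, so they cannot tell whether the floxed exons were lost. KO stands throughout for the samples labelled ABC-imKO. All 12 homeostatic microglial markers were present in every group. Their summed level was 27608 to 33023 CPM in KO cisplatin saline and 69344 to 86004 CPM in KO naive, and 40260 to 56078 CPM in WT cisplatin saline and 80266 to 95406 CPM in WT naive. The 10 monocyte markers summed to 777 to 1255 CPM in KO cisplatin saline and 24.2 to 42.3 CPM in KO naive. In WT they summed to 248, 1099 and 758 CPM in cisplatin saline samples 4, 5 and 6, against 7.78 to 75.7 CPM in naive. Most of each cisplatin saline sum was Fn1, at 639, 1088 and 723 CPM in KO and 236, 874 and 563 CPM in WT. Ccr2 overlapped between KO cisplatin saline (0.227, 4.88 and 6.74 CPM) and KO naive (1.89, 1.97 and 0.305 CPM). In WT it also overlapped, with cisplatin saline at 0.324, 95.3 and 62.8 CPM. Ly6c2 was 6.49, 1.11 and 0.0752 CPM in KO cisplatin saline, against 0, 0.0167 and 0.0161 CPM in KO naive. Chil3 was 116, 106 and 76.9 CPM in KO cisplatin saline, against 0.103, 4.89 and 0.225 CPM in KO naive, and overlapped in WT. Ly6i was lower in KO cisplatin saline than in KO naive, and Plac8, S100a4, F10, Vcan and Ms4a4c overlapped between these KO groups. Summed over 8 genes, border macrophage markers stood at 21.6 to 35.6 CPM in KO cisplatin saline (Lyve1 and Cd209f at 0) and 6.03 to 8.94 CPM in KO naive, and at 0.667 to 150 CPM in WT cisplatin saline (highest in sample 5) and 0.142 to 4.63 CPM in WT naive. Oligodendrocyte and astrocyte markers (6 genes each) were lower after cisplatin, at 226 to 336 and 100 to 143 CPM in KO cisplatin saline, against 464 to 796 and 196 to 265 CPM in KO naive. In WT they stood at 255 to 598 and 79.5 to 139 CPM in cisplatin saline, against 597 to 906 and 168 to 213 CPM in naive. Endothelial markers (5 genes) summed to 2.01 to 12.6 CPM in KO cisplatin saline (Cldn5 at 0) and 19.8 to 53.6 CPM in KO naive, and in WT to 9.98 to 13.7 CPM in cisplatin saline, against 25.4 to 44.7 CPM in naive. Neutrophil markers (8 genes) summed to 1.7 to 5.99 CPM in KO cisplatin saline and 0.0482 to 0.634 CPM in KO naive, and in WT to 0.0381 to 22.9 CPM in cisplatin saline, against at most 0.0178 CPM in naive, with S100a9, Ly6g, Retnlg and Ngp at 0 in all 4 of these groups. Summed markers of T and NK cells, B cells and neurons stayed at or below 88.6 CPM in every sample. Microglial, astrocyte and endothelial sums were thus lower after cisplatin saline in both genotypes without overlap, oligodendrocyte sums lower with overlap in WT, and monocyte sums higher without overlap, and the part of these markers in the results below was not tested. Within the microglial list, Olfml3 was higher in WT cisplatin saline (3393, 3410 and 4108 CPM) than in WT naive (3355, 3347 and 3281 CPM). Fcrls overlapped in WT, and the other microglial markers were lower there without overlap. The astrocyte marker Gfap overlapped in both genotypes. In sorted bulk samples, fewer cells of a type and less RNA per cell cannot be told apart.

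The nuclear genome carries copies of mitochondrial sequence, and the mt- genes share their own with such copies to very different extents. Of all windows of 50 bases, the length of 1 read, in a gene's transcript, 100% for mt-Co2, 99.9% for mt-Co3, 99.5% for mt-Atp6 and 98% for mt-Nd3 also occurred in another gene, and the copy that held most of them lay on chromosome 1 in each case. The share was 62.2% for mt-Nd4, 51.1% for mt-Co1, 8.19% for mt-Nd2, 7.61% for mt-Nd5 and 0% for mt-Cytb, mt-Nd1 and mt-Nd6. These stretches, all 5′ to 3′ and taken from GENCODE M21 transcripts on GRCm38, show the range. The stretches of 60 bases are from mt-Co2 (chrM:7013-7072, plus strand) and the matching stretch of the pseudogene Gm28661 (chr1:24615506-24615565, minus strand), which are identical, from mt-Nd2 (chrM:4580-4639, plus strand) and of Gm13339 (chr2:22590336-22590395, minus strand), which differ at the 4 bases in capitals, and from the start of mt-Nd1 (chrM:2751-2810, plus strand), for which no copy was found among the GENCODE M21 transcripts; the nuclear genome outside them was not searched.
mt-Co2: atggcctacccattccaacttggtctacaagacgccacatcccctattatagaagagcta
Gm28661: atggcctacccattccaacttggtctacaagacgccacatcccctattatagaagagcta
mt-Nd2: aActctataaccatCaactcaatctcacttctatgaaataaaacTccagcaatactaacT
Gm13339: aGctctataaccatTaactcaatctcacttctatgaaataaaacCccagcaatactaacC
mt-Nd1: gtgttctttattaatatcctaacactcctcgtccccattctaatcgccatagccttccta

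The 4 genes that share nearly all windows had the lowest levels of the 11. Averaged over all samples and divided by exon length, mt-Nd3 stood at 5.79 CPM per kb, mt-Co3 at 1.24, mt-Atp6 at 0.621 and mt-Co2 at 0.519, whereas the other 7 lay between 187 (mt-Nd6) and 5574 CPM per kb (mt-Cytb). Among those 7 the level did not follow the share, since mt-Co1 stood at 3545 CPM per kb with 51.1% of windows shared and mt-Nd6 shared none. The copies themselves were counted. Over all samples Gm28437 held 13644 counts beside 1051 for mt-Co3, Gm28661 3004 beside 386 for mt-Co2 and Gm10925 2994 beside 460 for mt-Atp6, whereas Gm28438 held 179 counts beside 2313 for mt-Nd3. How the authors' counting treated reads that match several genes was not given in the sources used here, so the level of these 4 mt- genes is uncertain. Medians of mt- genes below are over the other 7, and sums of all 11 hold at most 5.54 CPM of the 4 in any sample.

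Nuclear members rose after cisplatin in both genotypes. Their summed level was 14081, 14588 and 13728 CPM in the KO cisplatin saline samples, against 6523, 7282 and 9060 CPM in KO naive, a ratio of means of 1.85. It was 10643, 14352 and 13830 CPM in WT cisplatin saline, against 8189, 8441 and 7104 CPM in WT naive, a ratio of 1.64. Every cisplatin sample lay above every naive sample of its genotype, with WT sample 4 the lowest of its group. The sum of the mt- members was 18342, 19678 and 22158 CPM in KO cisplatin saline, against 12037, 11221 and 14784 CPM in KO naive (ratio 1.58, no overlap), and 17373, 17235 and 16935 CPM in WT cisplatin saline, against 14411, 17911 and 12676 CPM in WT naive (ratio 1.15, overlapping).

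**Figure D1:**
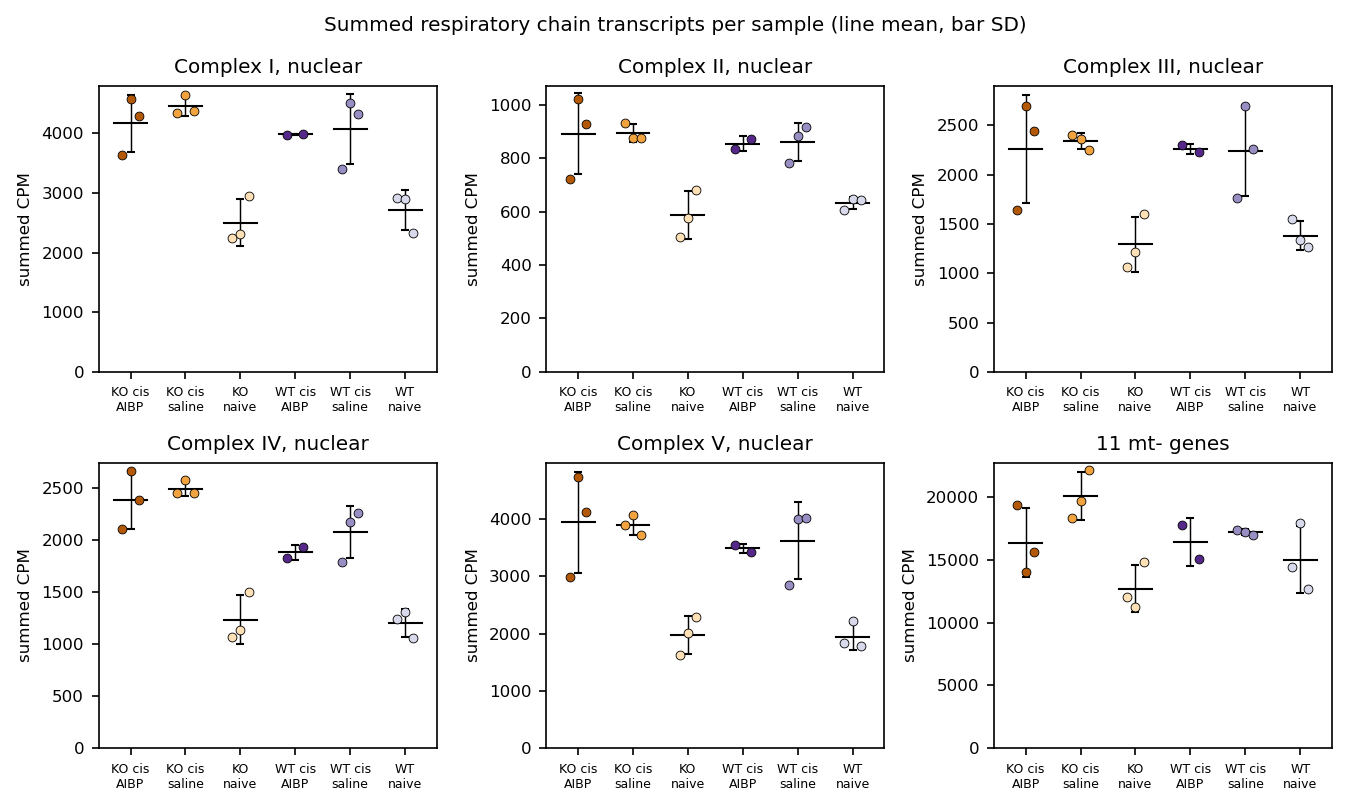
Summed CPM (y axes) of the nuclear members of complexes I, II, III, IV and V and of the 11 mt- members, each in its own panel. The 6 groups are on the x axis, 1 point per numbered sample, with a line at the mean and a bar of 1 SD. Complex IV sums, for example, lie between 1788 and 2657 CPM in the cisplatin samples and between 1053 and 1501 CPM in the naive samples. The mt- sums of WT cisplatin and WT naive overlap.

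Gene by gene, 49 of the 97 members passed the test as higher in KO cisplatin saline than in KO naive (edgeR quasi-likelihood test, adjusted over 20461 genes, threshold 0.05) and none as lower, where 2.42% of all genes tested were higher and 1.99% lower. In WT, 34 rose and none fell, where 1.95% of all genes were higher and 0.953% lower. Among the 8570 genes whose mean reached 10 CPM, a level that 77 of the 82 nuclear members reached, 5.52% were higher in KO and 4.31% in WT. All but 1 of the calls in each genotype were nuclear: 48 of 82 nuclear subunit genes rose in KO and 33 in WT, and the median log2 fold change of the 82 was 0.96 in KO and 0.79 in WT, beside -0.04 and -0.01 over all genes tested. In KO 79 of the 82 had a fold change above 0, and in WT 81. Every cisplatin saline sample lay above every naive sample for 71 of the 82 in KO and 58 in WT, where 12% of all genes did so in each genotype. Of the 34 genes called in WT 33 (97.1%) were also called in KO, which is 67.3% of the 49 there; Cox6a2 was called in WT alone, 16 genes in KO alone and 47 members in neither. Of the 4 pseudogenes none was called. The size of the WT count rested on single samples: it was 16, 21, 12, 11 and 16 without WT samples 1, 2, 3, 5 and 6, and 4 when only those 2 groups were fitted. The KO count was 30 without KO sample 2. Without WT samples 5 and 6, the 2 of their group with the highest monocyte marker sums, 1 sample is left, so that the count of 0 called members there says little. The nuclear median was then 0.58.

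**Figure D2:**
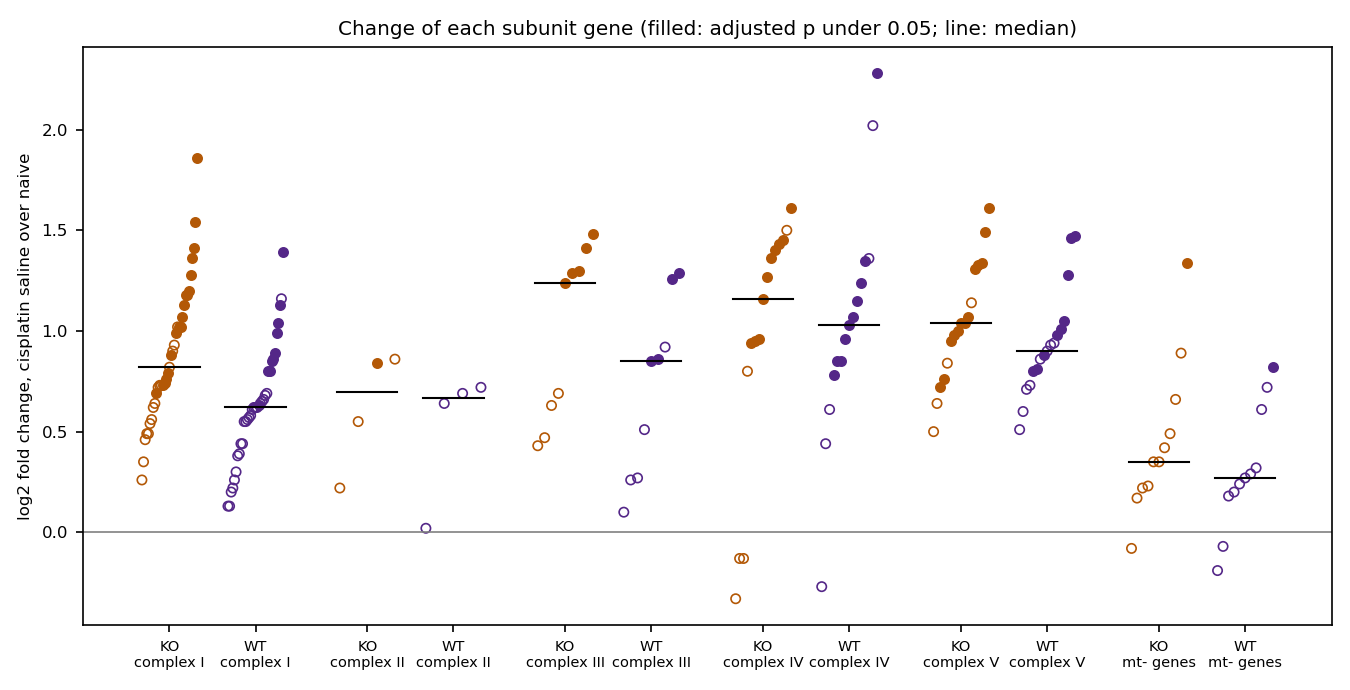
log2 fold change of each subunit gene (y axis) in KO cisplatin saline against KO naive and in WT cisplatin saline against WT naive. Nuclear genes are placed by complex and mt- genes in a column of their own (x axis), and genes that passed the test are filled. Cox4i2, at 0 counts in every naive sample, is left out, as are Cycs and the 4 pseudogenes. Called genes appear in each nuclear complex in KO and in all but complex II in WT, and mt-Nd1 is the called mt- gene.

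Complex I, the NADH dehydrogenase, had 19 of 35 nuclear subunits higher in KO cisplatin saline (median log2 fold change 0.82) and 10 in WT (0.62). Its summed nuclear level was 4341, 4649 and 4369 CPM in KO cisplatin saline, against 2244, 2318 and 2951 CPM in KO naive, and 3408, 4505 and 4323 CPM in WT cisplatin saline, against 2917, 2896 and 2329 CPM in WT naive. Ndufb9 (chr15:58933756-58939488, plus strand), an accessory subunit of the membrane arm, had 66.4, 67 and 60.8 CPM in KO cisplatin saline, against 24.8, 25.9 and 24.8 CPM in KO naive (log2 fold change 1.36 ± 0.18, adjusted p = 0.00119). In WT, Ndufb9 had 44.7, 55.1 and 52.4 CPM in cisplatin saline, against 24.2, 31.8 and 20.8 CPM in naive (log2 fold change 0.99 ± 0.18, adjusted p = 0.0106). All cisplatin saline samples were above all naive samples of both genotypes. Ndufc1, a small accessory membrane subunit, had 66.6, 88.9 and 82.1 CPM in KO cisplatin saline, against 27.6, 21.4 and 32.4 CPM in KO naive (log2 fold change 1.54 ± 0.22, adjusted p = 0.00146). In WT, Ndufc1 had 57.9, 82.3 and 76 CPM in cisplatin saline, against 41.4, 35.5 and 28.2 CPM in naive (log2 fold change 1.04 ± 0.22, adjusted p = 0.02). Ndufa12, an accessory subunit of the matrix arm, had 190, 215 and 179 CPM in KO cisplatin saline, against 46.4, 45.5 and 69.3 CPM in KO naive (log2 fold change 1.86 ± 0.29, adjusted p = 0.00249). In WT, Ndufa12 had 104, 234 and 172 CPM in cisplatin saline, against 66.6, 73.4 and 53.9 CPM in naive (log2 fold change 1.39 ± 0.29, adjusted p = 0.0179). For both genes WT sample 4 was the lowest cisplatin saline sample. Of Ndufa12, 17.7% of windows of 50 bases also occur elsewhere in the transcriptome. Per kb of exon, Ndufa2 was the most abundant nuclear subunit of the complex (284 CPM per kb) and Ndufb2 the least (0.881).

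Complex II, succinate dehydrogenase, also works in the citric acid cycle and had 1 of 4 subunits called in KO (median log2 fold change 0.69) and 0 in WT (0.67). Sdha, the flavoprotein, had 278, 248 and 286 CPM in KO cisplatin saline, against 201, 241 and 254 CPM in KO naive (log2 fold change 0.22 ± 0.15, adjusted p = 0.47). In WT, Sdha had 278, 250 and 264 CPM in cisplatin saline, against 264, 239 and 277 CPM in naive (log2 fold change 0.02 ± 0.15, adjusted p = 0.975); the groups overlapped. Sdhb (chr4:140961203-140979193, plus strand), the iron-sulfur subunit, had 377, 380 and 373 CPM in KO cisplatin saline, against 175, 190 and 265 CPM in KO naive (log2 fold change 0.84 ± 0.18, adjusted p = 0.0154). In WT, Sdhb had 334, 433 and 411 CPM in cisplatin saline, against 221, 289 and 220 CPM in naive (log2 fold change 0.69 ± 0.18, adjusted p = 0.053). Here each cisplatin sample lay above each naive one in both genotypes. The membrane anchors Sdhc and Sdhd did not pass. The log2 fold change of Sdhc was 0.55 ± 0.19 on the log2 scale (adjusted p = 0.14) in KO and 0.72 ± 0.19 on the log2 scale (adjusted p = 0.0603) in WT, and that of Sdhd 0.86 ± 0.27 on the log2 scale (adjusted p = 0.0959) in KO and 0.64 ± 0.27 on the log2 scale (adjusted p = 0.24) in WT. The 4 genes summed to 933, 876 and 876 CPM in KO cisplatin saline and 505, 578 and 682 CPM in KO naive, and to 783, 885 and 917 CPM in WT cisplatin saline, against 606, 649 and 644 CPM in WT naive.

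In complex III, which takes electrons from ubiquinol, 5 of 9 nuclear subunits rose in KO (median log2 fold change 1.24) and 4 in WT (0.85). Their summed level was 2406, 2363 and 2256 CPM in KO cisplatin saline, against 1064, 1212 and 1601 CPM in KO naive, and 1769, 2696 and 2266 CPM in WT cisplatin saline, against 1546, 1333 and 1271 CPM in WT naive. Uqcr11 (chr10:80402997-80406830, minus strand), a very small accessory subunit, had 284, 347 and 340 CPM in KO cisplatin saline, against 104, 104 and 141 CPM in KO naive (log2 fold change 1.48 ± 0.18, adjusted p = 0.000549). In WT, Uqcr11 had 253, 363 and 302 CPM in cisplatin saline, against 135, 127 and 122 CPM in naive (log2 fold change 1.26 ± 0.18, adjusted p = 0.00246). Uqcrb (chr13:66900617-66905378, minus strand), a subunit on the matrix side, had 63.4, 64.8 and 63 CPM in KO cisplatin saline, against 22.1, 24 and 25.7 CPM in KO naive (log2 fold change 1.41 ± 0.16, adjusted p = 0.000453). In WT, Uqcrb had 39.2, 45.3 and 46 CPM in cisplatin saline, against 25.3, 24.5 and 22.1 CPM in naive (log2 fold change 0.86 ± 0.16, adjusted p = 0.00969). Neither gene had a cisplatin sample within the range of its naive samples. The small subunits Uqcr10 and Uqcrq rose too. Uqcr10 rose by 1.29 ± 0.18 on the log2 scale (adjusted p = 0.00142) in KO and 0.85 ± 0.18 on the log2 scale (adjusted p = 0.02) in WT, and Uqcrq by 1.30 ± 0.22 on the log2 scale (adjusted p = 0.00449) in KO and 1.29 ± 0.22 on the log2 scale (adjusted p = 0.0077) in WT. Cyc1, which carries the haem that hands electrons to cytochrome c, had 453, 366 and 318 CPM in KO cisplatin saline, against 140, 152 and 191 CPM in KO naive (log2 fold change 1.24 ± 0.28, adjusted p = 0.0202). In WT, Cyc1 had 270, 433 and 308 CPM in cisplatin saline, against 166, 175 and 195 CPM in naive (log2 fold change 0.92 ± 0.28, adjusted p = 0.097), so that it passed in KO and not in WT. The 2 large core proteins and the Rieske subunit did not pass in either genotype; Uqcrc1, Uqcrc2 and Uqcrfs1 had log2 fold changes of 0.43 ± 0.24, 0.47 ± 0.27 and 0.69 ± 0.21 in KO and 0.51 ± 0.24, 0.10 ± 0.27 and 0.26 ± 0.21 in WT. Uqcrc1 and Uqcrfs1 were picked after their values were seen. Cycs (chr6:50562563-50566538, minus strand), cytochrome c itself, had 55.3, 62.5 and 62.7 CPM in KO cisplatin saline, against 20.1, 34 and 34 CPM in KO naive (log2 fold change 1.04 ± 0.32, adjusted p = 0.0896). In WT, Cycs had 41.2, 93.4 and 57.2 CPM in cisplatin saline, against 36.6, 43.4 and 25.9 CPM in naive (log2 fold change 0.86 ± 0.32, adjusted p = 0.187). The 2 groups were apart in KO and overlapped in WT, and neither contrast passed. Of windows of 50 bases, 26.1% in Cycs and 25.4% in Uqcrb also occur in another gene.

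Complex IV, cytochrome c oxidase, had 10 of 16 nuclear subunits higher in KO (median log2 fold change 1.21) and 10 in WT (1.05). Ndufa4 (chr6:11900292-11907497, minus strand) had 178, 192 and 170 CPM in KO cisplatin saline, against 53.4, 66.4 and 80.6 CPM in KO naive (log2 fold change 1.43 ± 0.17, adjusted p = 0.000549). In WT, Ndufa4 had 119, 159 and 146 CPM in cisplatin saline, against 63.2, 75.1 and 63.7 CPM in naive (log2 fold change 1.07 ± 0.17, adjusted p = 0.00429). Cox6b1 (chr7:30616861-30626151, minus strand), which sits where cytochrome c docks, had 279, 315 and 288 CPM in KO cisplatin saline, against 121, 120 and 155 CPM in KO naive (log2 fold change 1.16 ± 0.16, adjusted p = 0.00123). In WT, Cox6b1 had 212, 254 and 254 CPM in cisplatin saline, against 122, 122 and 109 CPM in naive (log2 fold change 1.03 ± 0.16, adjusted p = 0.00373). In both, the lowest cisplatin sample was above the highest naive one. Cox7b, a single-helix membrane subunit, had 79.1, 123 and 112 CPM in KO cisplatin saline, against 31.6, 31.4 and 39.7 CPM in KO naive (log2 fold change 1.61 ± 0.20, adjusted p = 0.000713). In WT, Cox7b had 74, 82.7 and 88.8 CPM in cisplatin saline, against 35.3, 45.3 and 30.2 CPM in naive (log2 fold change 1.15 ± 0.20, adjusted p = 0.0077). Cox5b, the zinc-binding subunit on the matrix side, rose by 1.40 ± 0.21 on the log2 scale (adjusted p = 0.00198) in KO and by 1.24 ± 0.21 on the log2 scale (adjusted p = 0.0067) in WT. The summed nuclear level of the complex was 2451, 2572 and 2449 CPM in KO cisplatin saline and 1064, 1130 and 1501 CPM in KO naive, a ratio of 2.02, the highest of the 5 complexes in KO. In WT cisplatin saline it was 1788, 2170 and 2253 CPM, against 1240, 1306 and 1053 CPM in WT naive, a ratio of 1.73.

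Several complex IV subunits exist as isoforms, and those best known from muscle, lung or testis were lower here than the widely expressed form of the same subunit. Cox6a1, the widely expressed form, averaged 550 ± 27.2 CPM per kb in KO cisplatin saline and 284 ± 50.4 in KO naive (SD, n = 3 each), and 515 ± 35.7 in WT cisplatin saline and 285 ± 35.2 in WT naive. It rose by 0.95 ± 0.15 on the log2 scale (adjusted p = 0.00223) in KO and 0.85 ± 0.14 on the log2 scale (adjusted p = 0.00685) in WT. The heart and skeletal muscle form Cox6a2 (chr7:128205435-128206387, minus strand) averaged 33.1 ± 4.27 and 11.7 ± 8.66 CPM per kb in the same KO groups, and 42.2 ± 5.22 and 8.7 ± 1.21 in the WT groups. By sample, Cox6a2 had 19.2, 24.3 and 24 CPM in KO cisplatin saline, against 5.86, 3.39 and 14.6 CPM in KO naive (log2 fold change 1.50 ± 0.44, adjusted p = 0.0694). In WT, Cox6a2 had 27.3, 32.7 and 26.1 CPM in cisplatin saline, against 6.1, 6.62 and 5.02 CPM in naive (log2 fold change 2.28 ± 0.45, adjusted p = 0.0144). The groups did not overlap in either genotype, KO naive sample 3 being the highest naive sample, and the WT contrast alone passed; the difference between the genotypes was not called (log2 fold change -0.78 ± 0.60, adjusted p = 0.856). Cox6a2 lies within Itgad, a gene of the other strand that reached at most 1.03 CPM in any sample. The library kit does not mark strand, so reads of the 2 genes cannot be told apart where they overlap. Exons of other genes cover 10.3% of the exon bases of Cox6a2. Other members are affected too, among them Atp5o (47.9%), Ndufb6 (39%), Ndufa13 (30%) and Ndufb9 (19.5%). Cox4i1, the main form of a regulatory subunit, averaged 403 ± 20.6 CPM per kb in KO cisplatin saline and 210 ± 48 in KO naive, and rose in KO (log2 fold change 0.94 ± 0.19, adjusted p = 0.0107) but did not pass in WT (log2 fold change 0.61 ± 0.19, adjusted p = 0.101). Its lung form Cox4i2 had 0 counts in all 6 naive samples, 24, 236 and 153 counts in KO cisplatin saline and 0, 73 and 1 in WT cisplatin saline. That is at least 104-fold higher in KO and at least 22.3-fold higher in WT, taking 3 counts over the naive group as the limit that a count of 0 allows, and neither passed (adjusted p = 0.101 in KO and 0.193 in WT). In WT the counts came almost wholly from sample 5.

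Cox7a2, the widely expressed form of another membrane subunit, averaged 152 ± 4.14 CPM per kb in KO cisplatin saline and 55.6 ± 10.3 in KO naive (log2 fold change 1.45 ± 0.19, adjusted p = 0.00115), and 108 ± 22.6 in WT cisplatin saline and 62.9 ± 10.5 in WT naive (log2 fold change 0.78 ± 0.19, adjusted p = 0.0415). Its muscle form Cox7a1 stayed under 2 CPM per kb in the mean of every group. Cox7a2l, a related protein that joins complex IV to complex III in supercomplexes, had 118, 110 and 106 CPM in KO cisplatin saline, against 96.5, 119 and 151 CPM in KO naive (log2 fold change -0.13 ± 0.18, adjusted p = 0.768). In WT, Cox7a2l had 97, 76.3 and 101 CPM in cisplatin saline, against 113, 121 and 97.2 CPM in naive (log2 fold change -0.27 ± 0.18, adjusted p = 0.443). Those groups overlapped in both genotypes. Cox8a, the form found in most tissues, rose in both (log2 fold change 0.96 ± 0.19, adjusted p = 0.00964 in KO and log2 fold change 0.85 ± 0.19, adjusted p = 0.027 in WT), while Cox8b and Cox8c, and Cox7b2, had 0 counts over all samples, which allows up to 3. The testis form Cox6b2 was the least abundant member of the complex (0.112 CPM per kb over all samples).

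Complex V had 13 of 17 nuclear genes higher in KO (median log2 fold change 1.04) and 9 in WT (0.90). Its summed level was 3895, 4065 and 3716 CPM in KO cisplatin saline, against 1627, 2009 and 2291 CPM in KO naive, and 2854, 4002 and 4014 CPM in WT cisplatin saline, against 1843, 2214 and 1780 CPM in WT naive. The proton-carrying ring is built from 1 mature protein encoded by 3 genes. Atp5g3 (chr2:73908447-73911326, minus strand) had 152, 146 and 118 CPM in KO cisplatin saline, against 56.5, 56 and 55.6 CPM in KO naive (log2 fold change 1.31 ± 0.18, adjusted p = 0.00125). In WT, Atp5g3 had 93, 130 and 124 CPM in cisplatin saline, against 42.1, 49.5 and 34.6 CPM in naive (log2 fold change 1.46 ± 0.18, adjusted p = 0.00113). Atp5g1 had 144, 123 and 117 CPM in KO cisplatin saline, against 35.1, 41.5 and 49.2 CPM in KO naive (log2 fold change 1.61 ± 0.29, adjusted p = 0.00602). In WT, Atp5g1 had 99.6, 184 and 125 CPM in cisplatin saline, against 55.1, 52.5 and 39.5 CPM in naive (log2 fold change 1.47 ± 0.29, adjusted p = 0.015). Atp5g3 and Atp5g1 were above all naive samples in every cisplatin saline sample. Atp5g2 did not pass (log2 fold change 0.50 ± 0.30, adjusted p = 0.393 in KO and log2 fold change 0.93 ± 0.30, adjusted p = 0.131 in WT), and 36.7% of its windows of 50 bases occur elsewhere. Per kb, Atp5g3 was the most abundant of the 3 in each group, for example 63.6 ± 8.23 CPM per kb in KO cisplatin saline beside 26.1 ± 2.84 for Atp5g1 and 7.99 ± 1.8 for Atp5g2. Atp5mpl, a small membrane subunit, had 101, 145 and 134 CPM in KO cisplatin saline, against 49.3, 44 and 42 CPM in KO naive (log2 fold change 1.49 ± 0.19, adjusted p = 0.000713). In WT, Atp5mpl had 76.6, 101 and 98.2 CPM in cisplatin saline, against 33.4, 44.4 and 35.9 CPM in naive (log2 fold change 1.28 ± 0.18, adjusted p = 0.00268). Atp5j2, a subunit of the peripheral part in the membrane, rose by 1.04 ± 0.15 on the log2 scale (adjusted p = 0.00191) in KO and by 0.88 ± 0.15 on the log2 scale (adjusted p = 0.00772) in WT. Atp5b, which holds the catalytic sites, was the most abundant nuclear subunit of complex V per kb (222 CPM per kb) and rose in both (log2 fold change 1.04 ± 0.24, adjusted p = 0.0223 in KO and log2 fold change 1.01 ± 0.24, adjusted p = 0.0358 in WT).

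**Figure D3:**
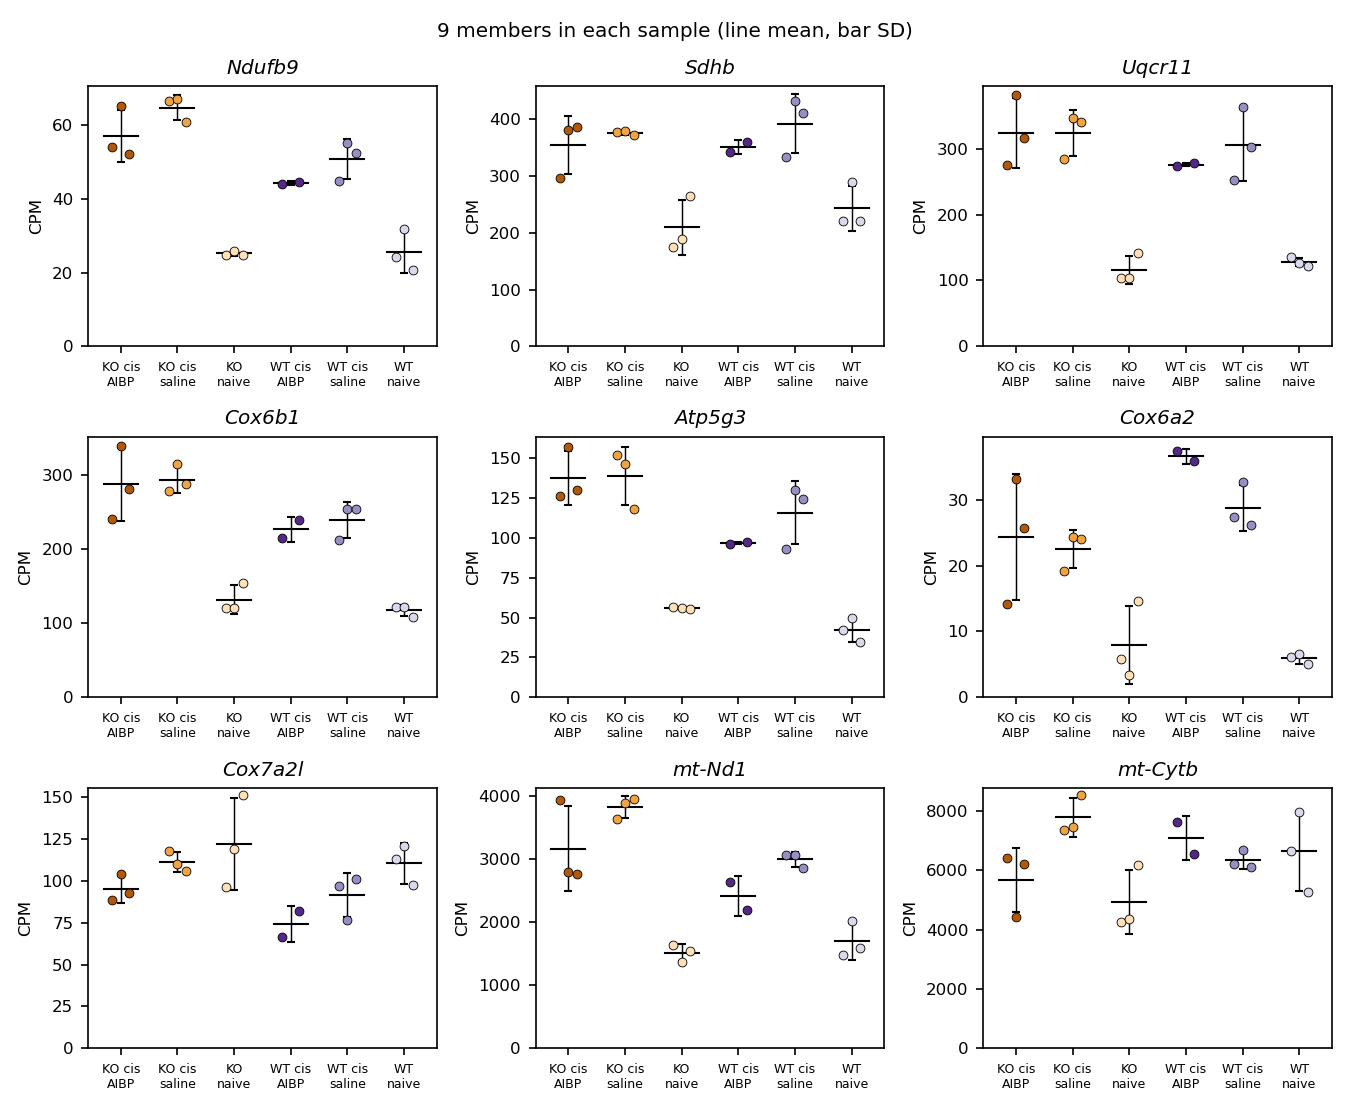
CPM (y axes) of selected members in the 6 groups (x axis), 1 point per numbered sample, with a line at the mean and a bar of 1 SD. Cisplatin samples lie above naive samples of their genotype for Atp5g3 (93 to 157 CPM after cisplatin, 34.6 to 56.5 CPM in naive mice), whereas the groups overlap for mt-Cytb in WT.

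Promoter sequence was examined because many respiratory genes are known targets of NRF1, which binds a GC-rich palindrome, and of the ETS factor GABP. RefSeq promoters (GRCm38.p6) were found by symbol for 67 of the 97 members and read over 280 bases, from 250 before the start to 30 from it on. The NRF1 core GCATGCGC, on either strand, occurred in 10 of 67 member promoters (14.9%) and in 716 of 27025 genes (2.65%), and the ETS core CCGGAAGT in 5 (7.46%) and 1017 (3.76%). At least 1 of them occurred in 7 of the 39 member promoters whose gene rose in either genotype (17.9%) and in 7 of the 28 whose gene did not (25%). The promoters of Uqcr11 (chr10:80406792-80407071, minus strand), Atp5g3 (chr2:73911297-73911576, minus strand) and Cycs (chr6:50566540-50566819, minus strand) are printed. Uqcr11 and Atp5g3 had the smallest p in WT cisplatin saline against WT naive among called members of complexes III and V with a promoter. Cycs was added by name. Uqcr11 holds both cores, Atp5g3 neither core and Cycs the NRF1 core alone. Cores are in capitals, and each sequence runs 5′ to 3′ on the gene's strand.
Uqcr11: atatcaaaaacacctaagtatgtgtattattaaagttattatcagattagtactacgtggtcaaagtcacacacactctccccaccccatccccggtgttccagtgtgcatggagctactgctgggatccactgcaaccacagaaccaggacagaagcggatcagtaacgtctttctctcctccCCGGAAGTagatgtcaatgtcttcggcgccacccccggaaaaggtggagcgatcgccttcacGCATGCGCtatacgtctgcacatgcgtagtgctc
Atp5g3: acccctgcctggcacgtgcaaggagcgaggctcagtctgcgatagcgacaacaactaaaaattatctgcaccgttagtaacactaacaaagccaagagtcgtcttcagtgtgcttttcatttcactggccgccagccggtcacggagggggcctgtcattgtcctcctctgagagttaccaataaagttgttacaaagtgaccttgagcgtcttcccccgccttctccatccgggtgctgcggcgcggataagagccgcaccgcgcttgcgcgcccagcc
Cycs: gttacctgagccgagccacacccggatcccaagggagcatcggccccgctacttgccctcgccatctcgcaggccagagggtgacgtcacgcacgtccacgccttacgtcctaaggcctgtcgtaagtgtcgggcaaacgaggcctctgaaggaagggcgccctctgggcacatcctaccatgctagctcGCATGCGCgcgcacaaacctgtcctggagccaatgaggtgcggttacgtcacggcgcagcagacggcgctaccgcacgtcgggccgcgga

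In Uqcr11 the NRF1 core begins 4 bases before the start and the ETS core 66 bases before it, and in Cycs the NRF1 core begins 60 bases before the start. No core overlaps another in these windows. Uqcr11 and Atp5g3 were picked for their call in WT and passed the test in KO as well, and Cycs passed in neither. Because of that choice, these calls say nothing about the cores.

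Among the 11 mt- members mt-Nd1, a core membrane subunit of complex I, was the called one. It had 3628, 3879 and 3950 CPM in KO cisplatin saline, against 1634, 1364 and 1542 CPM in KO naive (log2 fold change 1.34 ± 0.16, adjusted p = 0.000549). In WT, mt-Nd1 had 3058, 3059 and 2852 CPM in cisplatin saline, against 1471, 2020 and 1590 CPM in naive (log2 fold change 0.82 ± 0.16, adjusted p = 0.0132). All cisplatin saline samples lay above all naive samples. mt-Cytb, the core of complex III and the most abundant transcript of the set, had 7367, 7469 and 8547 CPM in KO cisplatin saline, against 4268, 4366 and 6196 CPM in KO naive (log2 fold change 0.66 ± 0.18, adjusted p = 0.0588). In WT, mt-Cytb had 6210, 6690 and 6131 CPM in cisplatin saline, against 6655, 7978 and 5286 CPM in naive (log2 fold change -0.07 ± 0.18, adjusted p = 0.9). Its groups were apart in KO and overlapped in WT, and neither passed. mt-Co1, the catalytic subunit of complex IV, had 5541, 6331 and 7428 CPM in KO cisplatin saline, against 3949, 4122 and 5695 CPM in KO naive (log2 fold change 0.49 ± 0.17, adjusted p = 0.127). In WT, mt-Co1 had 5495, 5995 and 6064 CPM in cisplatin saline, against 4794, 6102 and 4366 CPM in naive (log2 fold change 0.20 ± 0.17, adjusted p = 0.555). The other complex I genes with sequence of their own did not pass. mt-Nd2 had 340, 283 and 263 CPM in KO cisplatin saline, against 504, 218 and 216 CPM in KO naive (log2 fold change -0.08 ± 0.32, adjusted p = 0.944). In WT, mt-Nd2 had 616, 326 and 346 CPM in cisplatin saline, against 252, 329 and 266 CPM in naive (log2 fold change 0.61 ± 0.32, adjusted p = 0.336). mt-Nd4, mt-Nd5 and mt-Nd6 had log2 fold changes of 0.42 ± 0.31, 0.35 ± 0.22 and 0.22 ± 0.44 in KO and 0.18 ± 0.31, 0.32 ± 0.22 and 0.72 ± 0.44 in WT; none passed. In mt-Nd2, mt-Nd4, mt-Nd5 and mt-Nd6 the same 3 samples, WT cisplatin saline 4, KO naive 1 and KO cisplatin AIBP 7, were the highest of their groups, for example at 178, 153 and 198 CPM for mt-Nd6, where the remaining 14 samples lay between 53.1 and 123 CPM. The 4 genes whose sequence is shared almost wholly with nuclear copies had levels of 0.223 to 3.54 CPM and did not pass. The median log2 fold change of the other 7 was 0.42 in KO and 0.32 in WT. Summed over the 6 mt- genes of complex I, cisplatin saline lay above naive without overlap, at a ratio of 1.85 in KO and 1.52 in WT. The nuclear genes of complex I gave 1.78 and 1.5, and mt-Nd1 was the largest part of the mt- sum in every sample. Summed over mt-Cytb, mt-Nd1 and mt-Nd6, the ratio was 1.79 in KO without overlap and 1.12 in WT with overlap.

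Set against each other, nuclear and mt- members gave a ratio that overlapped between the groups in KO and did not in WT. The log2 ratio of the nuclear to the mt- sum was -0.38, -0.43 and -0.69 in KO cisplatin saline, against -0.88, -0.62 and -0.71 in KO naive (means -0.50 ± 0.17 and -0.74 ± 0.13, SD, n = 3 each). KO cisplatin saline sample 6 lay within the naive range. It was -0.71, -0.26 and -0.29 in WT cisplatin saline, against -0.82, -1.09 and -0.84 in WT naive (means -0.42 ± 0.25 and -0.91 ± 0.15), and here each cisplatin sample was above each naive one. With 3 samples against 3, an exact two-sided permutation test cannot give a p below 0.10, so no test of this ratio is given. The ratio also varied between the 3 technical replicates of 1 sample, with a range within a sample of 0.10 to 0.81. The widest range was that of WT cisplatin saline sample 4, the lowest of its group, whose replicates stood at -1.21, -0.40 and -0.58. Its replicate at -1.21 lay below every WT naive sample, so the separation in WT is within the spread of this sample's replicates.

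**Figure D4:**
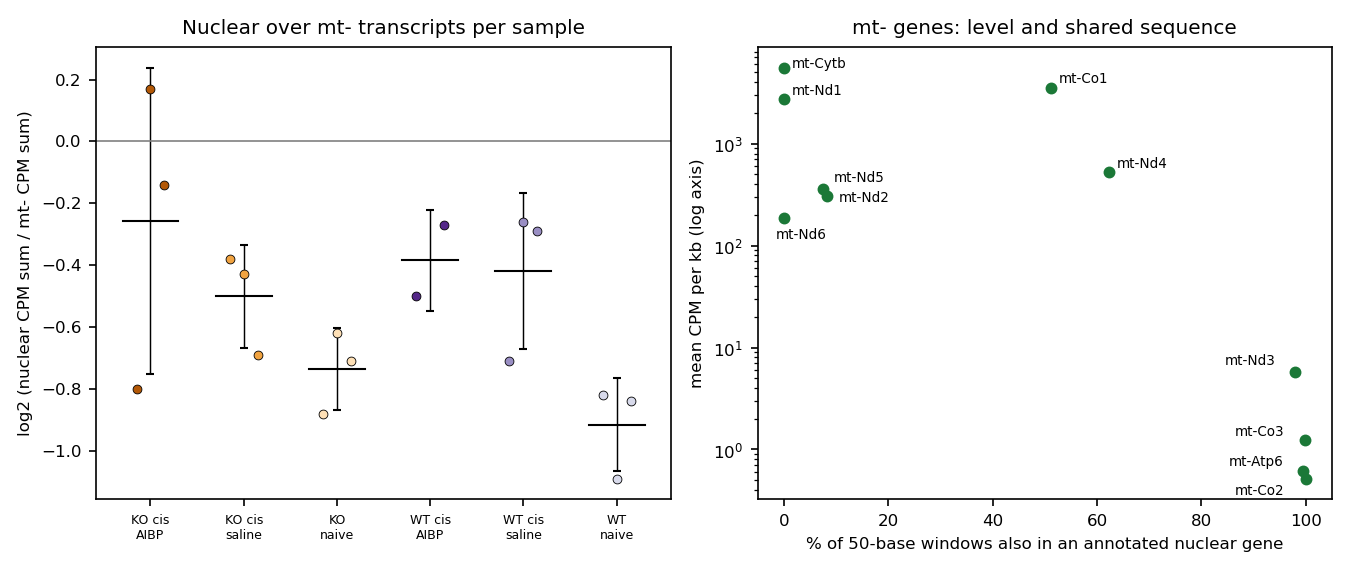
log2 of the summed nuclear over the summed mt- CPM (y axis) in the 6 groups (x axis), 1 point per numbered sample, with a line at the mean and a bar of 1 SD. KO cisplatin AIBP spreads from -0.80 to 0.17, wider than any other group, and WT cisplatin saline (-0.71 to -0.26) lies above WT naive (-1.09 to -0.82).

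Between AIBP and saline after cisplatin, no difference in a member passed the test. No member was called between KO cisplatin AIBP and KO cisplatin saline or between WT cisplatin AIBP and WT cisplatin saline, where 0.00977% and 0% of all genes were called, and DESeq2 and limma-voom called none either. At an unadjusted p under 0.05 there were 2 members in KO and 0 in WT (1354 and 759 genes over the whole table). The nuclear median log2 fold change was -0.08 in KO and -0.07 in WT, and the mt- median -0.12 and -0.31. The nuclear sum averaged 13707 ± 2342 CPM in KO cisplatin AIBP and 14132 ± 432 CPM in KO cisplatin saline (SD, n = 3 each), and 12529 ± 30.7 CPM in WT cisplatin AIBP (n = 2) and 12942 ± 2008 CPM in WT cisplatin saline (n = 3). The mt- sum averaged 16340 ± 2749 CPM in KO cisplatin AIBP and 20059 ± 1936 CPM in KO cisplatin saline (ratio 0.815), with overlap. In WT the ratio was 0.955, also with overlap. Summed over mt-Cytb, mt-Nd1 and mt-Nd6, every KO AIBP sample lay below every KO saline sample (ratio 0.765), whereas WT overlapped (1.01). Over the mt- genes of complex I, every WT AIBP sample lay below every WT saline sample (0.789), whereas KO overlapped (0.885). In the AIBP groups KO sample 7 was the lowest in the nuclear sum (11149 CPM) and the highest in the mt- sum (19371 CPM). The member with the smallest p in KO was mt-Cytb, with 6413, 4433 and 6207 CPM in KO cisplatin AIBP, against 7367, 7469 and 8547 CPM in KO cisplatin saline (log2 fold change -0.46 ± 0.18, adjusted p = 0.706). In WT it was Sdhc, with 39.7 and 40.8 CPM in WT cisplatin AIBP, against 56.8, 44.9 and 65.2 CPM in WT cisplatin saline (log2 fold change -0.47 ± 0.22, adjusted p = 0.996). For 0 of 82 nuclear members was every KO AIBP sample above every KO saline sample, and for 4 every one was below, where 4.17% and 4.43% of all genes did so. In WT these were 2 and 4, where 9.1% and 9.14% did so, with 2 samples against 3.

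Set against naive mice, the AIBP groups were high as well. In KO cisplatin AIBP 40 members rose and none fell relative to KO naive, where 1.81% of all genes were higher (nuclear median log2 fold change 0.90, mt- median 0.26). In WT cisplatin AIBP 14 rose and none fell relative to WT naive, where 1.06% of all genes were higher (0.72 and 0.08). Every AIBP sample lay above every naive sample for 67 of 82 nuclear members in KO and 70 in WT, where 10.1% and 17% of all genes did so. These comparisons share their naive samples with the saline ones. Of the 40 in KO, 38 (95%) were also called with saline, which is 77.6% of the 49 there, and all 14 in WT were also called with saline (41.2% of 34). In KO, Uqcrb had 58.7, 70.5 and 63.7 CPM with AIBP, against 22.1, 24 and 25.7 CPM in KO naive (log2 fold change 1.43 ± 0.16, adjusted p = 0.00105). Cox7b had 103, 106 and 102 CPM, against 31.6, 31.4 and 39.7 CPM in KO naive (log2 fold change 1.60 ± 0.20, adjusted p = 0.00137). mt-Nd1, the called mt- gene, had 3932, 2791 and 2756 CPM, against 1634, 1364 and 1542 CPM in KO naive (log2 fold change 1.06 ± 0.16, adjusted p = 0.00317). Uqcr11, Ndufa4 and Atp5mpl rose by 1.48 ± 0.18, 1.30 ± 0.17 and 1.36 ± 0.18 on the log2 scale. In WT, Atp5g3 had 96.3 and 97.4 CPM with AIBP, against 42.1, 49.5 and 34.6 CPM in WT naive (log2 fold change 1.20 ± 0.19, adjusted p = 0.0108). In the same WT groups Cox6a2 had 37.4 and 35.8 CPM, against 6.1, 6.62 and 5.02 CPM in WT naive (log2 fold change 2.63 ± 0.48, adjusted p = 0.018). Uqcr11, Cox6b1 and Atp5mpl rose by 1.11 ± 0.19, 0.95 ± 0.17 and 1.10 ± 0.20 on the log2 scale. With 2 AIBP samples the WT count was 0 without WT sample 7 or 9 and 1, 2 and 2 without WT samples 1, 2 and 3, 7 without WT sample 6 or KO sample 5, and 9 without KO sample 2, 6 or 9. The KO count was 25, 21 and 23 without KO samples 1, 2 and 8. Monocyte markers summed to 287 to 812 CPM in KO cisplatin AIBP (Ly6i at 0) and 202 to 291 CPM in WT cisplatin AIBP, and homeostatic microglial markers to 36316 to 47463 CPM and 56197 to 62647 CPM.

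No member was called between KO and WT under the same treatment. The nuclear median log2 fold change of KO over WT was -0.03 in naive mice, 0.16 after cisplatin saline and 0.22 after cisplatin AIBP, where 0.00489%, 0.044% and 0% of all genes were called (edgeR). At an unadjusted p under 0.05 there were 1220, 1837 and 1299 genes, with 2, 5 and 10 members among them. DESeq2 called 1 member after saline and 1 after AIBP, and limma-voom none. Uqcrb had the smallest p after both treatments. It had 63.4, 64.8 and 63 CPM in KO cisplatin saline, against 39.2, 45.3 and 46 CPM in WT cisplatin saline (log2 fold change 0.55 ± 0.16, adjusted p = 0.328). After AIBP it had 58.7, 70.5 and 63.7 CPM in KO cisplatin AIBP, against 39 and 43.7 CPM in WT cisplatin AIBP (log2 fold change 0.64 ± 0.18, adjusted p = 0.732). The samples did not overlap in either pair. In naive mice it was Atp5g3, with 56.5, 56 and 55.6 CPM in KO and 42.1, 49.5 and 34.6 CPM in WT (log2 fold change 0.41 ± 0.18, adjusted p = 0.789). Every KO sample was above every WT sample for 2 of 82 nuclear members in naive mice (5.49% of all genes), 13 after saline (6.1%) and 26 after AIBP (10.8%). Every KO sample was below every WT sample for 1, 1 and 3 of them, where 4.14%, 6.4% and 11.4% of all genes were. By complex, every KO sample lay above every WT sample in the summed nuclear level of complex IV. This was so after saline (2451, 2572 and 2449 CPM in KO and 1788, 2170 and 2253 CPM in WT, ratio 1.2) and after AIBP (ratio 1.27). In the test of the difference itself, KO effect minus WT effect, no member and no gene was called for cisplatin (nuclear median 0.21, 5 members and 1561 genes at an unadjusted p under 0.05) or for AIBP (0.02, 1 member and 1285 genes). The smallest p belonged to mt-Cytb in both (log2 fold change 0.72 ± 0.26, adjusted p = 0.607 for cisplatin and log2 fold change -0.62 ± 0.27, adjusted p = 0.781 for AIBP).

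Genes that build or serve the chain were examined in the same contrasts of cisplatin saline with naive, where 2.42% of all genes were higher in KO and 1.95% in WT. Of 47 assembly factors tested, 1 rose in each genotype (median log2 fold change 0.20 in KO and 0.17 in WT), namely Uqcc2, a complex III assembly factor (log2 fold change 1.22 ± 0.23, adjusted p = 0.00847 in KO and log2 fold change 1.12 ± 0.23, adjusted p = 0.0197 in WT), a share near that of all genes. Of 7 accessory and supercomplex genes 3 rose in KO (median 0.64) and 1 in WT (0.76), among them Atpif1, the ATP synthase inhibitor, in KO (log2 fold change 1.16 ± 0.23, adjusted p = 0.011) and Chchd2 in WT (log2 fold change 0.84 ± 0.18, adjusted p = 0.0211). Of 25 genes for mitochondrial transcription, RNA handling and DNA copying 0 rose and 1 fell in KO, the exonuclease Mgme1 (log2 fold change -1.55 ± 0.28, adjusted p = 0.00602), and none was called in WT (medians 0.06 and -0.13). The 12 nuclear regulators of the chain, among them Nrf1, Gabpa and Ppargc1b, had no call (medians -0.16 and -0.06). In the citric acid cycle 2 of 17 rose in KO, Pdhb (log2 fold change 0.70 ± 0.15, adjusted p = 0.0144) and Idh3a (log2 fold change 1.78 ± 0.43, adjusted p = 0.0305), and 0 in WT (medians 0.60 and 0.26). Of 19 outer membrane and import genes 4 rose in KO and 1 in WT (medians 0.76 and 0.71), with Tomm7, a small subunit of the import pore, called in both (log2 fold change 1.25 ± 0.19, adjusted p = 0.00199 in KO and log2 fold change 1.06 ± 0.19, adjusted p = 0.00781 in WT). Of 3 inner membrane carriers 2 rose in KO and 1 in WT, with the phosphate carrier Slc25a3 called in both (log2 fold change 0.67 ± 0.16, adjusted p = 0.0255 in KO and log2 fold change 0.67 ± 0.16, adjusted p = 0.035 in WT). Both mitochondrial rRNAs were measured and neither was called (medians 0.04 and 0.48).

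Transcript length went with the change over all genes, and members are short (median exon length 1631 bases for nuclear members, 3071 for all genes tested). Among other genes whose mean reached 10 CPM the median log2 fold change in KO was 0.48 below 1 kb, 0.17 from 1 to 2 kb, 0.06 from 2 to 4 kb and -0.12 from 4 kb, and in WT 0.32, 0.17, 0.02 and -0.18. Nuclear members stood at 1.00, 0.94, 0.84 and 0.94 in KO and at 0.85, 0.68, 0.72 and 0.67 in WT in the same classes (20, 31, 21 and 10 genes). With the trend on length removed, 41 members were called in KO and 28 in WT, and the nuclear median was 0.72 in KO and 0.56 in WT. Whether RNA quality or library making differed between the groups was not tested.

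**Figure D5:**
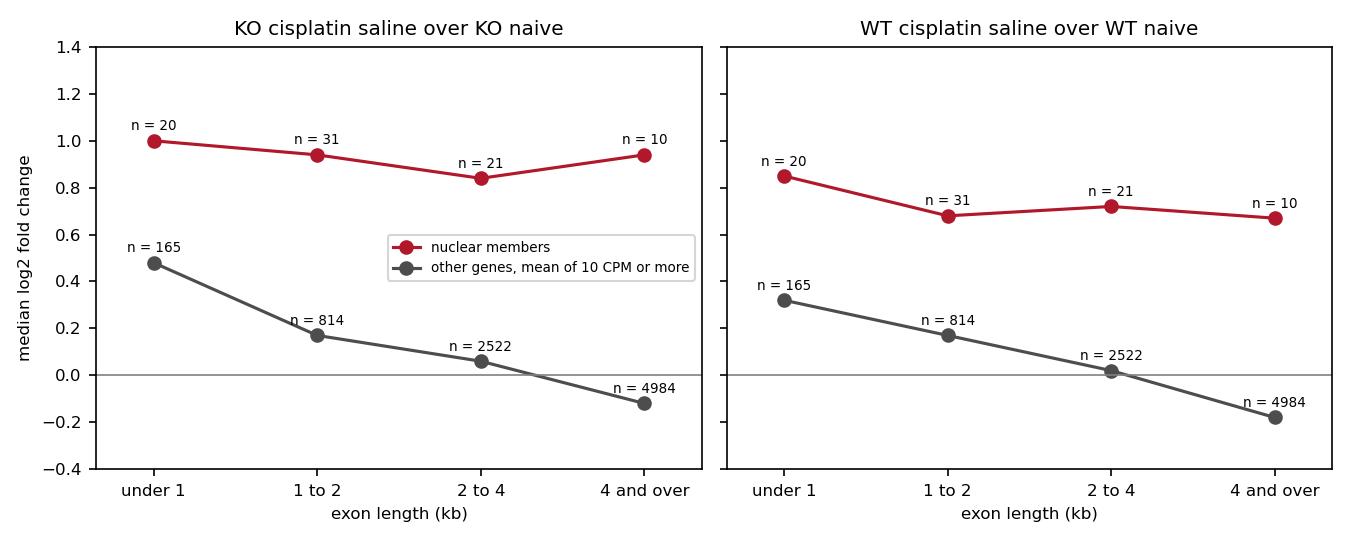
Median log2 fold change (y axis) by class of exon length (x axis) in KO cisplatin saline against KO naive and in WT cisplatin saline against WT naive, for nuclear members and for other genes whose mean reached 10 CPM. Nuclear members lie between 0.67 and 1.00 in all classes, and other genes between -0.18 and 0.48.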

How the data were processed

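RNA was measured in lumbar spinal microglia that were sorted by flow cytometry into lysis buffer, primed with oligo(dT), amplified and made into Nextera XT libraries, per the labels' protocols. Per the submitters' processing notes, the build was GRCm38 and the tools were STAR 2.6.0a, DESeq2, bcl2fastq, FastQC 0.11.17 and MultiQC 1.7; no source used here gives the counting tool, the strand setting or the treatment of reads with several matches. Raw counts were deposited by the authors for 53715 genes in 102 runs. The authors also deposited a normalized signal for 18856 genes, which within each run equals the count divided by 1 factor (0.437 to 1.62, relative tolerance 1e-09). The normalized table served to pick members, and raw counts gave every value. Genes were named from GENCODE M21 (53620 named, 95 without a symbol).

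The 6 runs of a numbered sample (3 technical replicates on 2 lanes) were summed, which gave 17 samples of 45.1 to 76.6 M counts. Depth and 2 or 3 samples per group limit the precision. The test was run in R 4.3.3 with edgeR 4.0.16. It used filterByExpr (20461 genes kept), TMM factors (0.885 to 1.11), the quasi-likelihood F test with group means over all 17 samples (11 residual degrees of freedom) and Benjamini-Hochberg adjustment over all genes tested, two-sided, threshold 0.05. Every adjusted p comes from this fit, fold changes are log2 ± SE, and a sum of CPM got no test. The calculations were tested on simulated data.

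The members and the lists of related genes and cell type markers were chosen with earlier results of these data known. Named members are all of complex II, Cycs, Cyc1 and the mt- genes, the 3 called members with the smallest p per complex in each comparison of cisplatin saline with naive, in other comparisons the called members (the 5 with the smallest p where over 10 were called) or the 1 with the smallest p, isoforms of 1 subunit, and the most and least abundant member per complex. From each related list up to 4 genes with the smallest p were eligible. Alternatives were other scalings, DESeq2 1.42.0, limma-voom (limma 3.58.1), other filters, the 2 groups of a comparison alone, removal of the trend on length, technical replicates as separate libraries, and each sample or technical replicate left out. All per-sample columns of the 2 tables were used.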

Additional observations from a re-analysis of the deposited data

Results flagged for a closer look

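Of the genes of the chain that the authors' normalized table does not hold, 3 had raw counts above 3, the limit that a count of 0 allows, whereas Cox7b2, Cox8b and Cox8c had 0. Over all 17 samples Ndufa4l2, a paralogue of Ndufa4 that is known from hypoxic cells, had 26 counts. mt-Atp8, the second complex V gene of the mitochondrial genome, had 50 counts, and mt-Nd4l of complex I had 36. No window of 50 bases of mt-Atp8 was found in the annotated transcripts searched. The nuclear genome outside them was not searched, so whether mt-Atp8 has a nuclear copy there is not known. Of the windows of mt-Nd4l, 98.8% also occur in other annotated transcripts, which are nuclear copies of mitochondrial sequence. These genes entered no comparison.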

How the results depend on the processing

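Directions of the member counts did not change under any setting tried; where members were called they were higher, except 1 lower in WT cisplatin AIBP against WT naive with technical replicates as libraries. The cause of each shift below was not tested. With technical replicates as libraries, the block was the technical replicate number and not the sample. The 3 libraries of a sample thus counted as independent there, in every comparison below. For KO cisplatin saline against KO naive (49) the count was 77 with technical replicates as libraries, and leaving out 1 sample gave 30 to 52. For WT cisplatin saline against WT naive (34) it was 52 with DESeq2, 52 with a mean of at least 10 CPM, 4 with only those 2 groups fitted, 67 with technical replicates as libraries, 10 without technical replicate 2 and 0 without WT samples 5 and 6, and 11 to 40 with 1 sample left out. For KO cisplatin AIBP against KO naive (40) it was 63 with DESeq2, 5 with those 2 groups and 71 with technical replicates as libraries, and 21 to 48 with 1 sample left out. For WT cisplatin AIBP against WT naive (14) it was 31 with library totals alone, 40 with DESeq2, 8 with limma-voom, 9 with no filter, 37 with at least 10 CPM, 57 with technical replicates as libraries, 1 without technical replicate 2 and 8 without technical replicate 3, and 0 to 17 with 1 sample left out (a lone sample is then assumed to vary like the other groups). Between KO and WT, DESeq2 called 1 member after saline and 1 after AIBP, and technical replicates as libraries 1 after AIBP. Other comparisons gave 0 to 0 with 1 sample left out. The sample numbers did not pair KO with WT samples (correlation of deviations -0.137 to 0.145), and with the number as replicate block 0 members were called in each of the 5 genotype comparisons. Of the named called genes, 20 of 768 values in KO cisplatin saline and 118 of 704 in WT cisplatin saline lost the call, 45 of 736 and 125 of 416 in the AIBP comparisons with naive, and none changed sign. Named genes that were not called did change sign. In WT cisplatin saline against WT naive the log2 fold change of mt-Cytb was 0.00 with upper quartile factors, 0.05 with library totals, 0.01 at 10 CPM, 0.04 with technical replicates as libraries and 0.14 without technical replicate 1. With the length trend removed mt-Co2, mt-Co3, mt-Nd3 and mt-Nd4 were at -0.13, -0.05, -0.37 and -0.02. Without technical replicate 1 Cox6b2, Sdha and mt-Atp6 were at -4.87, -0.04 and 0.42, without 2 mt-Co2 was at -0.02 and without 3 Uqcrc2 at -0.07. Without WT samples 5 and 6 Cox4i2, Uqcrc2 and mt-Atp6 were at 0.00, -0.11 and 0.18. With 1 sample left out mt-Cytb ran from -0.21 to 0.09, Sdha from -0.04 to 0.07, mt-Atp6 from -0.41 to 0.05, mt-Co3 from -0.06 to 0.68 and mt-Nd4 from -0.04 to 0.35. In KO cisplatin saline against KO naive Cox6b2, Cox7a1 and mt-Nd2 were at 0.99, 0.12 and 0.03 with limma-voom, and mt-Atp6, mt-Co2, mt-Co3 and mt-Nd6 at -0.32, -0.32, -0.10 and -0.43 with the length trend removed. Without technical replicate 1 mt-Atp6 and mt-Nd6 were at -0.28 and -0.11, without 2 Cox6b2, Cox7a2l and mt-Nd2 at 1.39, 0.09 and 0.03, and without 3 mt-Nd2 at 0.16. With 1 sample left out Cox6b2 ran from -0.71 to 0.75, Cox7a1 from -0.72 to 1.00, Cox7a2l from -0.28 to 0.05, mt-Nd2 from -0.29 to 0.45, mt-Nd6 from -0.01 to 0.79, mt-Atp6 from -0.08 to 0.68, mt-Co2 from -0.23 to 0.52 and mt-Co3 from -0.22 to 0.70. Depth limits Cox4i2, Cox6b2, Cox7a1, mt-Co2, mt-Co3, mt-Atp6 and mt-Nd3, which were at a few CPM or less.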
